A study of Drosophila melanogaster with 12 samples.

Results

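The 10 genes described here, spz, Tl, Dif, dl, cact, Rel, imd, pirk, key and Dredd, encode core parts of the Toll and Imd pathways, the main routes by which Drosophila switches on humoral immune genes. They were taken as the rows of the count table that carry these FlyBase symbols. All 10 were found among 17707 genes, and all 10 were among the 13179 genes with enough counts to be tested. In the Toll pathway, a protease cascade cleaves the secreted ligand Spätzle (spz), which binds the receptor Toll (Tl), and signalling then destroys the inhibitor Cactus (cact) and frees the NF-κB factors Dorsal (dl) and Dif to enter the nucleus. In the Imd pathway, peptidoglycan receptors engage the adaptor Imd, the caspase Dredd and the IKK subunit Kenny (key) act on the NF-κB factor Relish (Rel), and Pirk (pirk), itself a target of the pathway, holds the receptor complex back. Both pathways are best known in the fat body, blood cells and gut, and the Toll pathway also patterns the embryo from RNA that the ovary loads into the egg.

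RNA of whole Drosophila melanogaster was sequenced in 12 libraries, 3 in each of 4 groups. CK72h and CK96h were control flies kept for 72 h (day 3) or 96 h (day 4) on the normal medium of sucrose, corn powder, agar, dry yeast and propanoic acid. T72h and T96h were flies kept as long on the same medium with added erythritol, a sugar alcohol that is toxic to insects. Flies went onto the media as newly emerged adults, so time on the medium and age go together, no group carried a transgene or mutation by its label, and each library came from a pool of flies for which the sources used here give neither strain nor sex. The study calls the libraries biological replicates. The labels do not say whether they came from separate cultures, so p-values measure only the spread between these libraries, which may be technical.

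The libraries held 19855575 to 23327826 counts, and the common coefficient of variation between replicates was 4.06%. The 10 genes had 66 to 4838 counts in a library, the fewest for pirk in CK72h. Values are CPM, counts put on a common library size after scaling by trimmed mean of M-values (TMM). T72h replicate 3 stood apart, with 16.5% of its counts on mitochondrial genes against 7.29% to 11.9% in the other 11 libraries, and values of the 10 genes that change their call or sign without it are given both ways. Whole-fly RNA also changed with the groups. The summed level of 11 follicle cell genes lay between 9569 and 9788 CPM in CK72h, between 20087 and 24648 in CK96h, between 1339 and 1559 in T72h and between 980 and 1001 in T96h. Most of this sum in every group came from the yolk protein genes Yp1, Yp2 and Yp3, of which Yp1 is also listed for the fat body. Their means were 2105, 3291 and 1238 CPM in CK72h and 552, 229 and 211 in T96h. The most abundant of the other follicle genes in T96h, dec, was at 0.570 CPM. The sum of 16 testis genes lay between 5137 and 5193 CPM in CK72h, 2042 and 2071 in CK96h, 2525 and 2623 in T72h, and 5402 and 5442 in T96h. In such samples, fewer cells of a type and less RNA per cell cannot be told apart. The testis sum of CK72h was nearest that of T96h, and the sum of CK96h nearest that of T72h. With no sex given for the pools, a different share of males between groups cannot be told apart from the medium or the time in any comparison here. Whether groups were exchanged was not tested. The follicle sum was lower in both groups labelled erythritol than in both controls. An exchange of the times within a medium would not alter that order, so the follicle sum cannot decide about it.

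At 72 h, 9 of the 10 genes were higher in erythritol-fed than in control flies and none was lower, by edgeR's quasi-likelihood test with Benjamini-Hochberg adjustment over all genes tested (adjusted p under 0.05). The fitted log2 fold change was above 0 for all 10. The same call was made for 37.3% of all genes as higher and 42.1% as lower. With an added threshold of 1.5 on the log2 scale, which the study used, only pirk was called, against 3.98% of all genes higher and 8.92% lower. At 96 h, 8 of the 10 genes were higher and 2, spz and Tl, were lower, against 38.3% and 41.2% of all genes. None of the 10 passed the fold threshold at 96 h (3.97% of all genes higher and 7.15% lower, with 813 in place of 523 genes higher without T72h replicate 3). The median log2 fold change of the 10 genes was 0.69 at 72 h and 0.32 at 96 h, and that of all genes was -0.05 and -0.02. Scaling by library totals in place of TMM moved the median of all genes at 72 h to -0.30, so a change whose call depends on the scaling is also given below relative to the median of all genes.

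**Figure D1:**
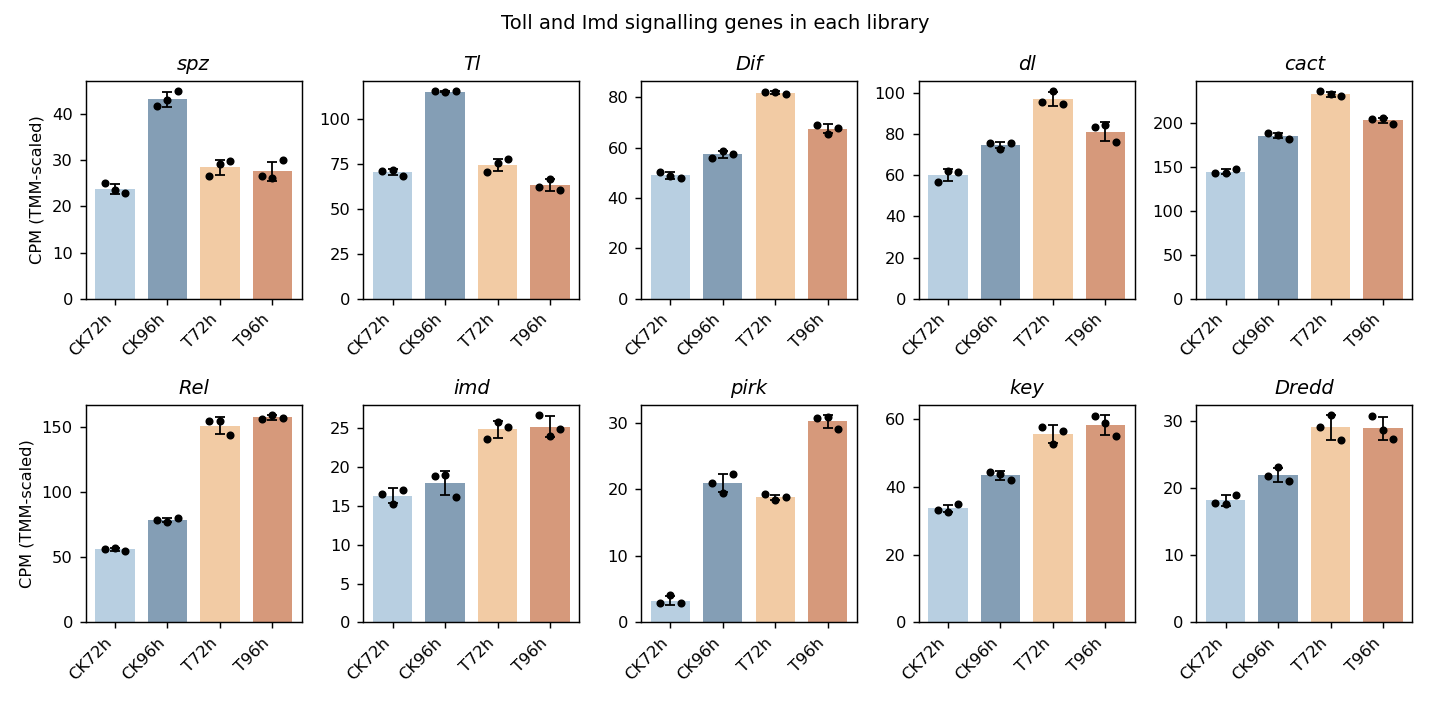
Each panel shows 1 gene, with the TMM-scaled CPM of every library as points, the group mean as a bar and the SD as an error bar (n = 3 libraries a group), for CK72h, CK96h, T72h and T96h, on an axis that starts at 0. Rel sat at 54.8 to 80.5 CPM in all 6 control libraries and at 144 to 159 in all 6 erythritol libraries, while spz and Tl were highest in CK96h.

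The ligand and the receptor of the Toll pathway were the only members lower with erythritol at 96 h, and both were highest in CK96h. spz (FBgn0003495, minus strand of chromosome 3R, 27064990-27070070 in the dm6 assembly) was at 25.0, 23.6 and 22.8 CPM in CK72h, 41.7, 42.9 and 44.9 in CK96h, 26.6, 29.1 and 29.7 in T72h, and 26.6, 26.2 and 30.01 in T96h. The 3 CK96h libraries stood above the other 9, and the T72h and T96h libraries overlapped. In controls spz rose by 0.86 on the log2 scale (SE 0.0595, edgeR adjusted p = 1.96e-12) from 72 h to 96 h, and in erythritol-fed flies the change was -0.05 (SE 0.0627, adjusted p = 0.561). Erythritol-fed flies were 1.20-fold higher at 72 h (log2 0.26, SE 0.0630, adjusted p = 6.49e-04) and at 0.639 of the control level at 96 h (log2 -0.65, SE 0.0593, adjusted p = 3.05e-10). The rise at 72 h depended on the scaling, and it was 0.13 with upper-quartile factors (adjusted p = 0.065) and 0.0011 with library totals (adjusted p = 0.988). Relative to the median of all genes it was 0.31.

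Tl (FBgn0262473, plus strand of 3R, 26799041-26842403) was at 71.0, 71.8 and 68.4 CPM in CK72h, 115.2, 115.1 and 115.2 in CK96h, 70.7, 75.3 and 77.5 in T72h, and 62.4, 66.8 and 60.3 in T96h. CK96h was again above every other library, T96h was below every other library, and CK72h and T72h overlapped. The difference at 72 h did not pass the test (log2 0.08, SE 0.0436, edgeR adjusted p = 0.0902). It passed without T72h replicate 3 (0.10, adjusted p = 0.0399), without T72h replicate 1 (0.12, adjusted p = 0.018) or with DESeq2 (0.11, adjusted p = 0.0355), and turned to -0.18 with library totals (adjusted p = 0.00221). Relative to the median of all genes it was 0.13. At 96 h Tl was at 0.548 of the control level (log2 -0.87, SE 0.0430, adjusted p = 1.52e-15), the largest fall among the 10 genes. In controls it rose by 0.71 between the times (adjusted p = 9.81e-14), and in erythritol-fed flies it fell by 0.24 (adjusted p = 6.67e-05).

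The 3 cytoplasmic genes of the Toll pathway were higher with erythritol at both times. Dif (FBgn0011274, minus strand of 2L, 17413248-17433161), the NF-κB factor known for Toll signalling in adult immunity, was at 50.5, 48.9 and 47.8 CPM in CK72h, 55.7, 58.6 and 57.6 in CK96h, 82.3, 82.0 and 81.2 in T72h, and 69.2, 65.7 and 68.0 in T96h. The 4 groups did not overlap, with T72h highest and CK72h lowest. dl (FBgn0260632, minus strand of 2L, 17436830-17450364), the related factor that patterns the embryo and lies 3668 bp from Dif, was at 56.8, 61.9 and 61.5 CPM in CK72h, 75.5, 72.8 and 75.6 in CK96h, 95.7, 100.7 and 94.5 in T72h, and 83.3, 84.3 and 76.1 in T96h. The groups had the same order as for Dif, although the lowest T96h library was within 1 CPM of the highest CK96h library. cact (FBgn0000250, minus strand of 2L, 16313036-16326207), the inhibitor and a known target of the pathway it inhibits, was at 143, 143 and 148 CPM in CK72h, 188, 187 and 182 in CK96h, 236, 232.5 and 230.2 in T72h, and 204, 205 and 199 in T96h. It too had T72h highest, CK72h lowest and no overlap between groups.

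At 72 h the log2 fold changes of these genes were 0.74 for Dif (SE 0.0408, edgeR adjusted p = 1.59e-14), 0.69 for dl (SE 0.0456, adjusted p = 5.53e-13) and 0.69 for cact (SE 0.0343, adjusted p = 1.87e-15). At 96 h they were 0.24 for Dif (SE 0.0412, adjusted p = 1.1e-05), 0.12 for dl (SE 0.0456, adjusted p = 0.0183) and 0.13 for cact (SE 0.0341, adjusted p = 0.00141). The call for dl at 96 h was lost without CK96h replicate 2 (0.10, adjusted p = 0.0783), T96h replicate 1 (0.10, adjusted p = 0.0776) or T96h replicate 2 (0.09, adjusted p = 0.0986). All 3 genes fell between 72 h and 96 h in erythritol-fed flies, by 0.27 for Dif, 0.26 for dl and 0.20 for cact, and rose in controls, by 0.22, 0.31 and 0.36. The fall of cact did not pass with library totals (-0.08, adjusted p = 0.196), and with these totals the rises of Dif (0.03, adjusted p = 0.573) and dl (0.12, adjusted p = 0.05) in controls did not pass either. Relative to the median of all genes, the change was -0.19 for cact in erythritol-fed flies and 0.10 for Dif and 0.19 for dl in controls. The opposite-strand gene CG15141 shares 252 bp, or 4.42%, of the exons of Dif and was at 23.6 to 34.1 CPM by group. The sources used here do not say whether counting used strand.

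The adaptor and the signalling enzymes of the Imd pathway were higher in erythritol-fed flies at both times. imd (FBgn0013983, minus strand of 2R, 18409796-18413599), a death-domain adaptor, was at 16.6, 15.3 and 17.1 CPM in CK72h, 18.8, 18.9 and 16.1 in CK96h, 23.6, 25.7 and 25.1 in T72h, and 26.65, 23.95 and 24.9 in T96h. The 6 erythritol libraries were all above the 6 control libraries, and the times overlapped within each medium. Erythritol changed it by 0.61 on the log2 scale at 72 h (SE 0.0716, edgeR adjusted p = 3.26e-08) and 0.49 at 96 h (SE 0.0714, adjusted p = 8.2e-07). The times differed by 0.13 in controls (adjusted p = 0.106) and 0.02 in erythritol-fed flies (adjusted p = 0.832), of which the first passed without CK96h replicate 3 (0.22, adjusted p = 0.0133) and the second was -0.016 without T72h replicate 3 (adjusted p = 0.879). GstE9, on the opposite strand, shares 40 bp (2.64%) of the exons of imd and was at 121 (CK72h) and 131 CPM (CK96h) in controls and at 247 (T72h) and 284 (T96h) on erythritol. Its part in the rise of imd was not tested.

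Dredd (FBgn0020381, minus strand of X, 633622-635545), the caspase that cleaves Imd and is needed for cleavage of Relish, was at 17.8, 17.7 and 19.1 CPM in CK72h, 21.8, 23.1 and 21.1 in CK96h, 29.1, 30.9 and 27.2 in T72h, and 30.7, 28.7 and 27.4 in T96h. key (FBgn0041205, minus strand of 2R, 24785514-24787411), the regulatory subunit of the IKK complex, was at 33.3, 32.7 and 34.8 CPM in CK72h, 44.5, 43.9 and 41.9 in CK96h, 57.6, 52.6 and 56.6 in T72h, and 60.8, 58.9 and 55.1 in T96h. For both genes CK72h was lowest, CK96h lay between it and the erythritol groups without overlap, and T72h and T96h overlapped. The log2 fold changes at 72 h were 0.68 for Dredd (SE 0.0650, adjusted p = 7.73e-10) and 0.73 for key (SE 0.0509, adjusted p = 1.91e-12) by edgeR. At 96 h they were 0.40 for Dredd (SE 0.0641, adjusted p = 4.34e-06) and 0.43 for key (SE 0.0496, adjusted p = 2.44e-08). CG3589, on the opposite strand, shares 29 bp (2.04%) of the exons of key and was at 18.7 (CK72h) and 24.4 CPM (CK96h) in controls and at 31.9 (T72h) and 32.7 (T96h) on erythritol, and its part in the rise of key was not tested. Mybbp1A shares 0.703% of the exons of Dredd and was lower on erythritol, at 20.4 (T72h) and 17.3 CPM (T96h) against 33.5 (CK72h) and 44.2 (CK96h).

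Rel had the largest rise of the 10 genes at 96 h and the next largest after pirk at 72 h. Rel (FBgn0014018, minus strand of 3R, 9044183-9047977), whose product is cut to release an NF-κB factor, was at 56.1, 57.6 and 54.8 CPM in CK72h, 78.8, 77.1 and 80.5 in CK96h, 155, 155 and 144 in T72h, and 156, 159 and 158 in T96h. No control library reached the lowest erythritol library, and T72h replicate 3, the library with the high mitochondrial share, was the lowest of the 6. Rel was 2.70-fold higher at 72 h (log2 1.43, SE 0.0394, edgeR adjusted p = 6.89e-21) and 2.0-fold higher at 96 h (log2 1.0, SE 0.0384, adjusted p = 7.12e-18). Without T72h replicate 3 the value at 72 h was 1.52, past the fold threshold. Rel rose by 0.49 between the times in controls (adjusted p = 7.12e-11), and in erythritol-fed flies the change was 0.06 (adjusted p = 0.187), or -0.02 without T72h replicate 3 (adjusted p = 0.673).

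pirk (FBgn0034647, minus strand of 2R, 21660967-21662995), the negative regulator that binds Imd and the receptor PGRP-LC, varied most of the 10 genes. It was at 2.84, 4.08 and 2.93 CPM in CK72h, 21.0, 19.5 and 22.3 in CK96h, 19.2, 18.5 and 18.8 in T72h, and 30.7, 30.8 and 29.1 in T96h. CK72h was far below all other libraries, T72h lay just below CK96h, and T96h was above every other library. The fold change at 72 h was 5.72 (log2 2.52, SE 0.103, edgeR adjusted p = 3.13e-17) and at 96 h it was 1.44 (log2 0.53, SE 0.0715, adjusted p = 3.06e-07). In controls alone pirk rose 6.371-fold from 72 h to 96 h (log2 2.67, SE 0.101, adjusted p = 1.51e-17), more than erythritol changed it at either time, and in erythritol-fed flies it rose by 0.68 (adjusted p = 1.61e-08).

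**Figure D2:**
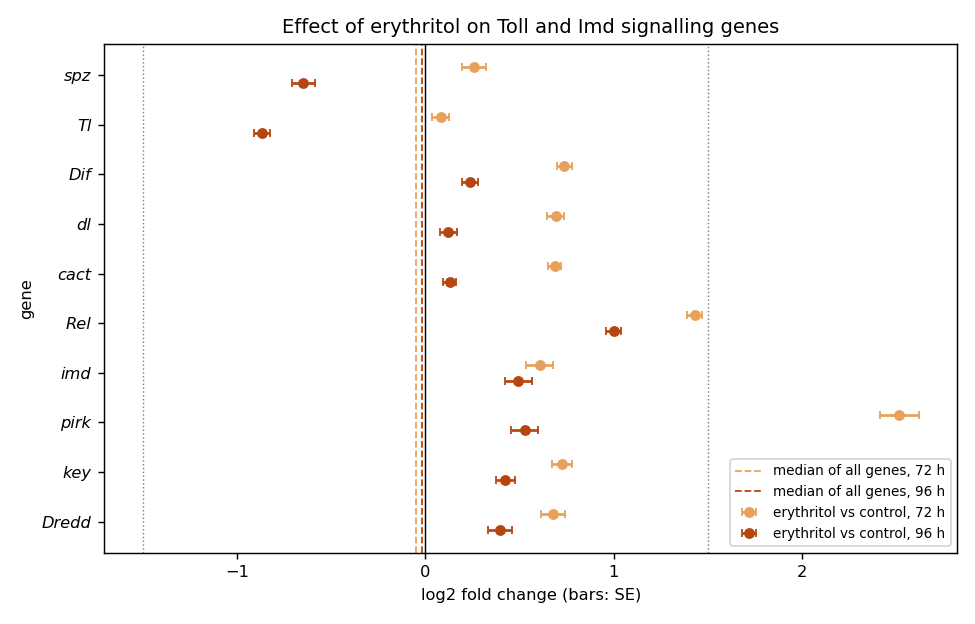
Points give the log2 fold change of erythritol-fed against control flies for each of the 10 genes at 72 h and 96 h, with bars for the SE of the edgeR fit. Dashed lines mark the median of all 13179 genes, the black line marks 0 and dotted lines mark 1.5 in each direction. Every gene lies further left at 96 h than at 72 h, and spz and Tl cross 0.

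The effect of erythritol was smaller or more negative at 96 h than at 72 h for all 10 genes, and the difference of the effects passed the test for 9 of them, all in that direction, against 47.8% of all genes lower and 31.1% higher. The difference was -1.99 for pirk (SE 0.129, edgeR adjusted p = 6.37e-13), -0.95 for Tl, -0.91 for spz, -0.57 for dl, -0.56 for cact, -0.50 for Dif and -0.43 for Rel. It was -0.30 for key (adjusted p = 5.13e-04), -0.28 for Dredd (adjusted p = 0.00711) and -0.11 for imd (SE 0.101, adjusted p = 0.315). The median of all genes was itself at -0.22, and relative to it Rel was at -0.21, key at -0.08, Dredd at -0.06 and imd at 0.11. With library totals, which moved that median to 0.09, the call of Rel was lost (-0.12, adjusted p = 0.165), and key (0.01) and Dredd (0.03) lost both call and sign. With upper-quartile factors key (-0.10, adjusted p = 0.201) and Dredd (-0.08, adjusted p = 0.417) lost the call, so that 7 genes passed there and 6 with library totals.

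The comparisons at 96 h and between the control times share the CK96h libraries, and those at 72 h and between the control times share CK72h, so a high or low control group enters both. From CK72h to CK96h, 9 of the 10 genes rose and none fell, against 47.2% and 35.1% of all genes, and pirk alone passed the fold threshold (1.56% of all genes higher). With library totals 6 genes rose, without Dif, dl and Dredd (0.08, adjusted p = 0.314). With upper-quartile factors 7 rose, without Dif (0.06, adjusted p = 0.219) and Dredd (0.11, adjusted p = 0.15). Relative to the median of all genes Dredd was at 0.15. The median over the 10 genes was 0.36 and that of all genes 0.12, which became -0.07 with library totals. From T72h to T96h, only pirk rose and 4 genes (Tl, Dif, dl and cact) fell, against 26.3% of all genes higher and 26.8% lower. With library totals Dif and dl were the genes that still fell, while pirk, Rel (0.18, adjusted p = 0.00294) and key (0.19, adjusted p = 0.00574) were higher at T96h. Relative to the median of all genes, Tl was at -0.23, Rel at 0.07 and key at 0.08.

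Per kilobase of exon, which allows levels of different genes to be compared, cact was the highest of the 10 in every group, at 43.5 (CK72h) and 55.8 (CK96h) CPM per kb in controls and 70.0 (T72h) and 61.0 (T96h) in erythritol-fed flies. Rel followed in both erythritol groups, at 43.3 in T72h and 45.1 in T96h, whereas key was the next gene after cact in both control groups, at 23.7 in CK72h and 30.6 in CK96h. pirk was the lowest gene in CK72h (1.78 CPM per kb) and in T72h (10.2). In T96h, at 16.4, it was close to imd, at 16.6.

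Ratios between genes whose products bind each other were then taken within each library, which takes the library size out. The ratio of cact to the sum of dl and Dif, per kilobase, was 2.42 ± 0.0560 (CK72h) and 2.58 ± 0.0660 (CK96h) in controls and 2.38 ± 0.0476 (T72h) and 2.49 ± 0.0397 (T96h) in erythritol-fed flies (SD, n = 3). The media overlapped at both times (two-sided exact permutation p = 0.4 at 72 h and 0.3 at 96 h), and the log2 difference of the ratio was -0.03 at 72 h and -0.05 at 96 h. The ratio of dl to Dif was 1.09 ± 0.0784, 1.15 ± 0.0506 (CK96h), 1.05 ± 0.0333 (T72h) and 1.06 ± 0.0728 (T96h), also with overlap between the media.

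The ratio of pirk to imd was 0.167 ± 0.0452 in CK72h and 0.625 ± 0.0403 in T72h, without overlap, and 0.968 ± 0.151 in CK96h and 0.989 ± 0.0601 in T96h, with overlap (SD, n = 3). The regulator thus stood 3.73-fold higher against its adaptor in erythritol-fed flies at 72 h and 1.02-fold at 96 h. The ratio of spz to Tl was 0.744 ± 0.0264 (CK72h) and 0.825 ± 0.0306 (CK96h) in controls and 0.841 ± 0.0109 (T72h) and 0.965 ± 0.118 (T96h) on erythritol, and the erythritol libraries were above the controls at both times. With 3 libraries against 3 the exact permutation test cannot go below p = 0.1, and none of the 16 tests of 4 ratios could pass 0.05.

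**Figure D3:**
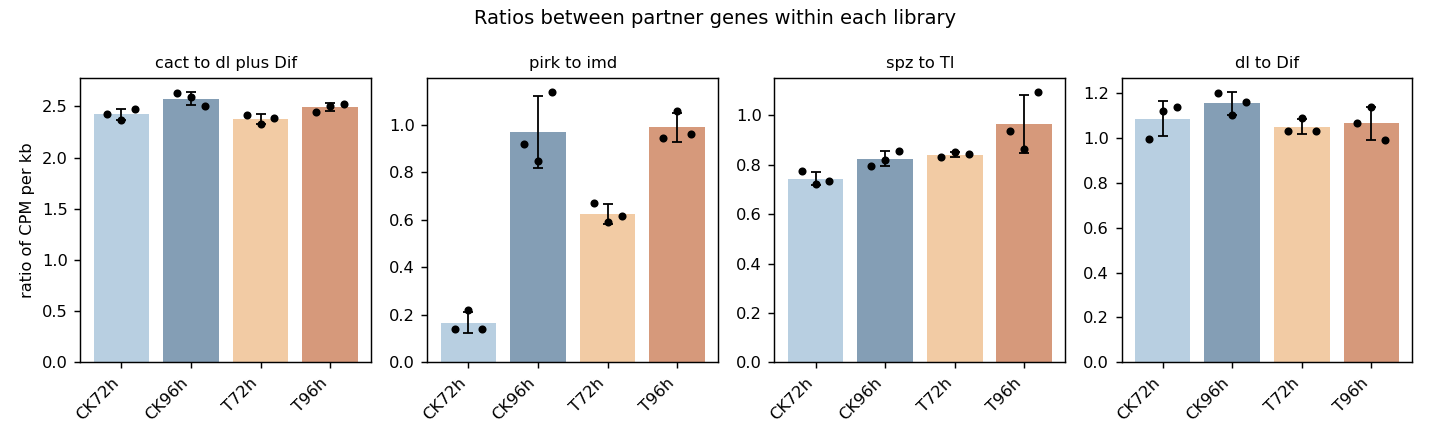
The panels show 4 ratios of CPM per kb within each library (points), with the group mean as a bar and the SD as an error bar (n = 3), for CK72h, CK96h, T72h and T96h. The ratio of cact to dl plus Dif stays between 2.33 and 2.63 in all 12 libraries, while that of pirk to imd runs from 0.141 to 1.14.

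Other components of the pathways, from lists of known members, were also counted at both times. Of 29 further Toll components upstream or downstream of the receptor, at 72 h 21 rose and 5 fell (median log2 fold change 0.43), and at 96 h 8 rose and 14 fell (median -0.08). Of 32 further Imd components, at 72 h 21 rose and 5 fell (median 0.31), and at 96 h 12 rose and 16 fell (median -0.17). With library totals the numbers lower at 72 h were 8 and 11, and the median of all genes was then -0.30. The counts with TMM stand beside 37.3% of all genes higher and 42.1% lower at 72 h, and 38.3% and 41.2% at 96 h, also with TMM.

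Among the 17 genes that recognise microbes or carry the protease cascade to Spätzle, 12 rose and 4 fell at 72 h. Hayan, a protease of the cascade, was at 1.95 and PGRP-SD, a peptidoglycan recognition protein, at 1.62, while the protease homologues sphinx2 and sphinx1 were at -2.81 and -2.13. At 96 h 6 members of the list rose and 5 fell. nec, a serpin that restrains the cascade and the most abundant of the list, was at 0.81 and then -0.12. Of 12 intracellular Toll components, 9 rose and 1 fell at 72 h, while 2 rose and 9 fell at 96 h. The most abundant, Sumo, a small modifier protein, was at -0.13 (edgeR adjusted p = 0.0652) and then fell by 0.82.

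Relatives of the ligand and the receptor were counted beside 42.1% of all genes lower at 72 h and 41.2% at 96 h. Of 5 other Spätzle genes, 3 fell and 1 rose at 72 h and 3 fell at 96 h, with NT1 at -4.90 and -2.12, spz6 at -2.96 and -1.28 and spz4 at -2.01 and -1.78. These 3 genes were at 5.32 CPM or less in every group. The most abundant of the list, spz5, was at 0.18 (edgeR adjusted p = 0.191) and -0.04 (adjusted p = 0.806). Of 4 tested Toll-related receptor genes, 3 fell and 1 rose at 72 h, the last being Toll-9 (1.74), and 3 fell at 96 h, led by Tollo (-1.57). The 7 genes of the dorsal group that act in and around the egg to activate Spätzle had 4 falls and 1 rise at 72 h and 6 falls and 1 rise at 96 h. ndl, a protease made by follicle cells, was at -3.76 and -4.09, pip, a sulfotransferase of the follicle, at -2.61 and -1.66, and wbl, which Pipe needs, at -1.99 and -1.37. Spn27A, a serpin of the group and its most abundant gene, rose by 0.69 and 0.19. The falls of ndl, pip and wbl at both times went with those of the follicle cell genes. By contrast, gd was at 0.07 at 72 h (edgeR adjusted p = 0.745) and -1.58 at 96 h. Likewise ea was at -0.03 (adjusted p = 0.755) and then -0.61. The part of the ovary in the values of the 10 genes was not tested.

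In the Imd pathway, the 8 peptidoglycan receptors and amidases had 5 rises and 2 falls at 72 h and 4 of each at 96 h. Beside this and the counts below, 37.3% of all genes were higher and 42.1% lower at 72 h. At 96 h the shares were 38.3% and 41.2%. PGRP-LF, a receptor that dampens the pathway, was at 1.82 and 1.03, whereas the amidases PGRP-SC1a (-3.07 and -1.64) and PGRP-SC1b (-2.20 and -2.15) were lower at both times. PGRP-SC1a and PGRP-SC1b are close copies, so the split of reads between them is uncertain. PGRP-LC, the main receptor and the most abundant of the list, rose by 0.44 and 0.38. Of 11 intracellular Imd components, 9 rose and none fell at 72 h, while 2 rose and 6 fell at 96 h, with the most abundant, the ubiquitin-conjugating enzyme gene eff, at -0.02 (edgeR adjusted p = 0.807) and -0.59. Of 13 negative regulators, at 72 h 7 rose and 3 fell, and 96 h gave 6 of each. nub, a transcription factor that represses immune genes in the gut, was at 1.80 and 0.70, and SkpA, a ubiquitin ligase subunit and the most abundant of the list, at 0.05 (edgeR adjusted p = 0.175) and -0.61.

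**Figure D4:**
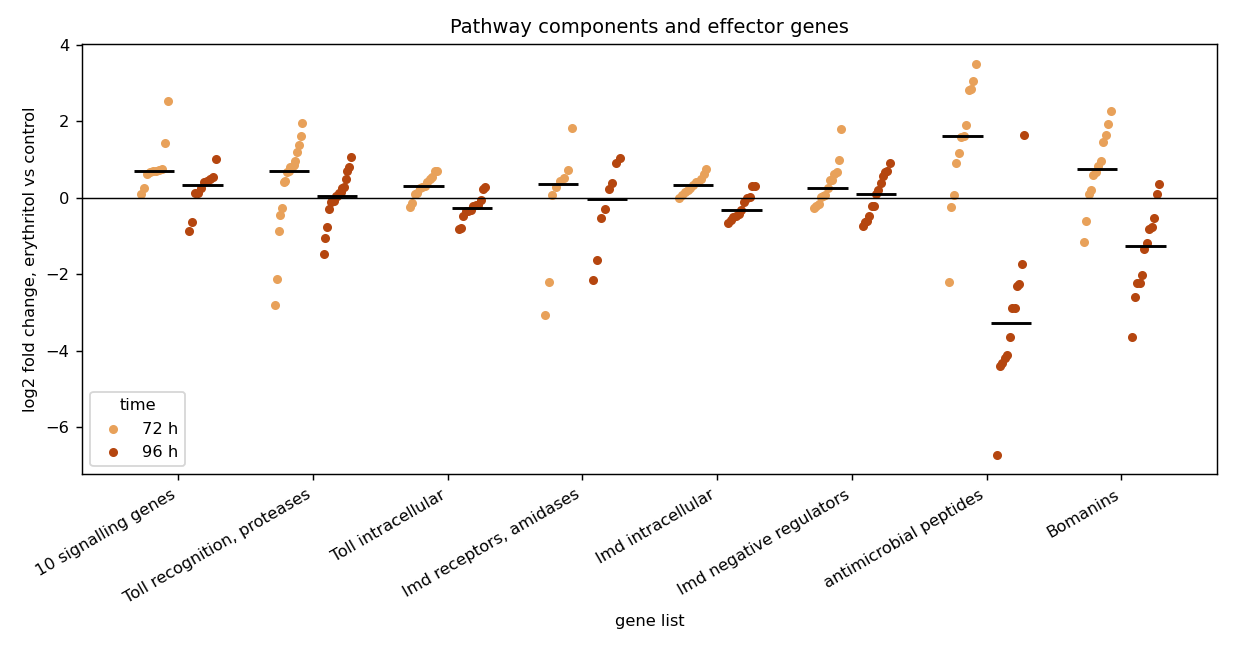
Each point is the log2 fold change of 1 gene in erythritol-fed against control flies, at 72 h (light) and 96 h (dark), by gene list, and black bars mark the median of a list. The medians of the antimicrobial peptide genes lie at 1.599 and -3.27, and those of the 10 signalling genes at 0.69 and 0.32.

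Most of the genes that the pathways switch on were higher with erythritol at 72 h and lower at 96 h. At 96 h 8 of the 10 signalling genes were higher, dl and cact by only 0.12 and 0.13 on the log2 scale. The signalling genes spz and Tl were lower then, as were 9 of 12 further intracellular Toll components and 6 of 11 of Imd. Of all genes, 37.3% were called higher and 42.1% lower at 72 h, and 38.3% and 41.2% at 96 h. Of 12 tested antimicrobial peptide genes, 72 h gave 9 rises and 2 falls (median 1.599), and 96 h gave 1 rise and 11 falls (median -3.27). Leaving out single libraries gave 1 to 3 falls at 72 h, with 1 without T72h replicate 1 or without T72h replicate 3. AttC, which encodes an attacin, was at 4.61 ± 0.815 (CK72h) and 105 ± 2.12 CPM (CK96h) in controls and at 32.1 ± 0.321 (T72h) and 6.10 ± 0.662 (T96h) on erythritol (SD, n = 3). DptA, a diptericin gene read as a marker of Imd signalling, was at 3.10 ± 0.852, 96.4 ± 1.65 (CK96h), 25.9 ± 2.31 (T72h) and 7.72 ± 1.43 (T96h). For both, CK96h was highest, and erythritol-fed flies differed from controls by 2.80 (72 h) and -4.10 (96 h) on the log2 scale for AttC and by 3.05 and -3.64 for DptA. Mtk, the metchnikowin gene, was at 45.02 ± 3.46 CPM in CK96h and 0.424 ± 0.201 in T96h (log2 -6.73). The genes of this family share sequence between copies, which leaves their split uncertain.

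The 12 Bomanin genes, short peptides best known as Toll targets, had 8 rises and 2 falls at 72 h (median 0.75) and 1 rise and 10 falls at 96 h (median -1.26), or 2 rises at 96 h without T72h replicate 3. Beside these stand 37.3% of all genes higher and 42.1% lower at 72 h, and 38.3% and 41.2% at 96 h. At 72 h and then 96 h, BomS2 was at 1.92 and -1.34 and BomS3, the most abundant, at 1.65 and -0.54. BomT2 was higher at both times, at 2.26 and 0.36. BomBc3 (-1.17 and -3.64) and BomBc1 (-0.61 and -2.61) were lower at both times. Summed levels of the antimicrobial peptide genes lay between 80.7 and 87.0 CPM in CK72h, 583 and 589 in CK96h, 209 and 214 in T72h, and 59.4 and 62.8 in T96h. The sum for Bomanins was 228 to 242, 669 to 698 (CK96h), 415 to 579 (T72h) and 329 to 399 (T96h). Both sums were highest in CK96h, whereas pirk was highest in T96h and Rel was higher in both erythritol groups than in CK96h.

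**Figure D5:**
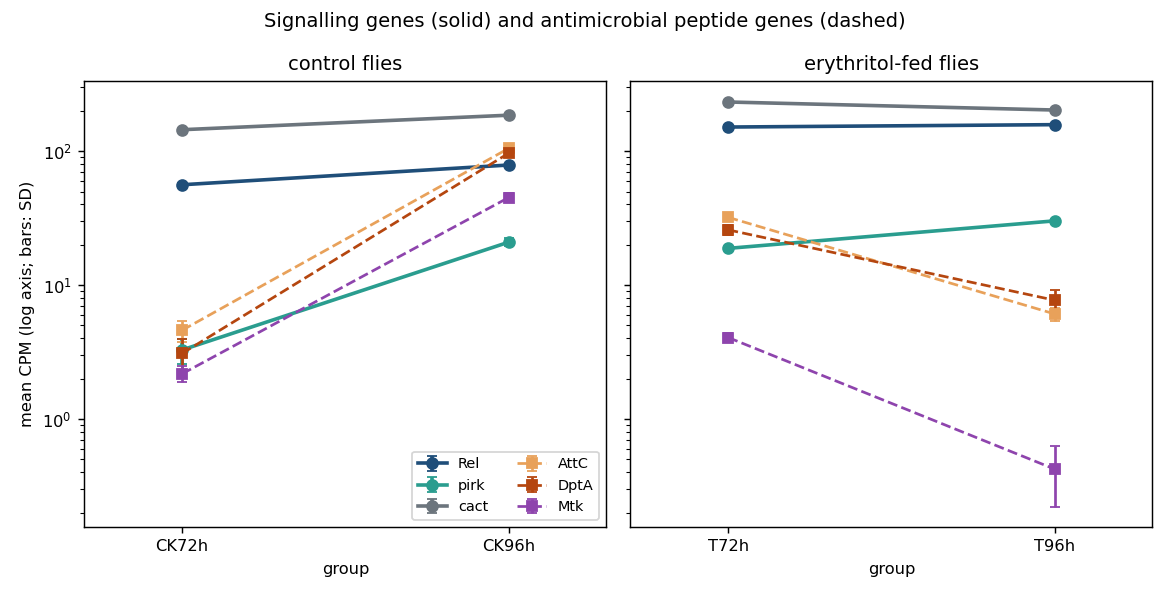
Mean CPM on a log axis, with SD bars (n = 3), of 3 signalling genes (Rel, pirk and cact, solid lines) and 3 antimicrobial peptide genes (AttC, DptA and Mtk, dashed lines) in control flies (left) and erythritol-fed flies (right) at 72 h and 96 h. In controls the peptide genes rise with pirk from 72 h to 96 h, and in erythritol-fed flies they decline while pirk rises from 18.8 to 30.2 CPM and Rel stays at 151 and 158.

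Markers of the cell types that use these pathways also differed between the groups, the blood cell sum being higher at 72 h with erythritol and the fat body and midgut sums lower at both times. The counts of marker genes stand beside 37.3% of all genes higher and 42.1% lower at 72 h, and 38.3% and 41.2% at 96 h. Of 11 blood cell genes, 72 h gave 10 rises and 1 fall, and 96 h gave 3 rises and 4 falls. Their sum lay between 638 and 647 CPM in CK72h, 1141 and 1219 in CK96h, 1199.8 and 1273 in T72h, and 1109 and 1132 in T96h. Of 6 tested fat body genes, 2 rose and 4 fell at each time, and the sum of all 8 listed genes, which include Yp1, a yolk protein gene that follicle cells also use, lay between 3168 and 3225 CPM in CK72h, 6831 and 7813 in CK96h, 1540.3 and 1578 in T72h, and 1339 and 1388 in T96h. The sum of 9 midgut genes lay between 10730 and 10893 CPM in CK72h, 9641 and 11683 in CK96h, 8842 and 9806 in T72h, and 7753 and 7759 in T96h, with 3 rises and 6 falls at 72 h and 2 rises and 7 falls at 96 h. Of these markers none was at 0. The most abundant genes weighed most in these sums, and other listed genes went the other way. In the fat body list Yp1 was at 2105 CPM in CK72h and 672 in T72h. There bmm (log2 2.09) and Apoltp (1.35) rose at 72 h. In the midgut list alphaTry was at 4527 CPM in CK72h and 2879.8 in T72h, but Mal-A1 at 409 and 3182.5. Of the blood cell genes, Col4a1 was at 410.2 CPM in CK96h and 227 in T96h, but Hml at 145 and 219.

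Markers of the reproductive tissues differed between the groups too. All 11 follicle genes were lower at both times, against 42.1% of all genes at 72 h and 41.2% at 96 h. The shares of all genes higher were 37.3% and 38.3%. Of 13 tested germline genes of the ovary, 10 were lower at each time, and 1 was higher at 72 h and 3 at 96 h, with a sum between 1605 and 1629 CPM in CK72h, 1840 and 1852 in CK96h, 844 and 858 in T72h, and 986 and 1004 in T96h. The ovary gene cup was listed at 0 in all libraries. All 15 tested testis genes fell with erythritol at 72 h and rose with it at 96 h, so that CK72h was close to T96h and CK96h to T72h. The antimicrobial peptide sum was low in CK72h and T96h, where the testis sum was high. The part of these shifts in the levels of the 10 genes was not tested.

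Over the 12 libraries, only Rel and pirk had group means at least 1 apart on the log2 scale. The genes whose log2 CPM followed Rel most closely were Sil1, Gcn5 and Pfas (Pearson r = 0.999, 0.998 and 0.998), and those that followed pirk were RPA1, Trx2 and Mlc-c (r = 0.996, 0.994 and 0.991). The 12 points fall into 4 groups, so these values mostly describe the relative spacing of 4 group means. They do not measure the size of a change. RPA1 was at 91.9 CPM in CK72h and 186 in T96h, where pirk was at 3.29 and 30.2. Pfas, for example, was at 110.1 (CK72h) and 175 CPM (CK96h) in controls and at 498 (T72h) and 547 (T96h) on erythritol.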

How the data were processed

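Whole-body RNA of 12 libraries was measured by poly(A) RNA sequencing. Per the labels and the study's methods, the authors trimmed adapters, dropped reads of low quality and aligned the rest with HISAT2, and CASAVA 1.8 is also named. The deposited values are raw counts per gene, not scaled for depth or length. The sources used here name neither the counting tool nor its strand setting. Of 17707 rows, 149 are gene models of the authors. Symbols, positions and exon lengths came from the Ensembl release 115 annotation of dm6.

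edgeR 4.0.16 (R 4.3.3) fitted the 4 groups together after its filter on low counts and TMM scaling. Contrasts and thresholds are those given with the results. The study used DESeq2, which served here (1.42.0) as an alternative beside other scalings, no filter, only the groups compared, a replicate block, and each library left out. The fit was first tested on simulated counts with few genes changed and a wider spread between replicates than here. That test does not cover a change of most genes, as called in these data. Pearson r and CPM on the log2 scale used a prior count of 2. No library was a copy of another of its group (chi-square per degree of freedom at least 1.75 in every pair within a group). Pairs of libraries from different groups were not compared in this way.

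All 10 genes are named. From the other pathway and effector lists the text names at most 4 genes per list and time past both thresholds, by adjusted p, and the most abundant. The members, lists and tests were chosen with earlier results of these data known. 18w, Plenty, slf, CG9723, Drs and FASN1 had no match and were not used here.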

Additional observations from a re-analysis of the deposited data

Results flagged for a closer look

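The effect of erythritol on 9 genes differed between the times by a test of the difference itself (edgeR's interaction contrast, Benjamini-Hochberg adjusted). The log2 effect at 96 h minus that at 72 h was -1.99 for pirk, -0.95 for Tl, -0.91 for spz, -0.57 for dl, -0.56 for cact, -0.50 for Dif, -0.43 for Rel, -0.30 for key and -0.28 for Dredd. By the same test 47.8% of all genes were lower and 31.1% higher. The median of all genes was -0.22, and relative to it Rel was at -0.21, key at -0.08 and Dredd at -0.06. For spz and Tl the fitted effect was above 0 at 72 h, where that of Tl did not pass the test, and below 0 at 96 h. For the other 7 it was positive at both times and smaller at 96 h. The differences of key and Dredd did not pass with upper-quartile factors, and key, Dredd and Rel did not pass with library totals.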

How the results depend on the processing

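Over 19 alternatives, 893 values of the 10 genes kept their direction and their side of the threshold, 15 lost and 9 gained a call with the sign kept, and 23 changed sign, some of them with a call lost or gained. With library totals Tl at 72 h was -0.176, the difference of effects 0.203 for imd, 0.0143 for key and 0.0314 for Dredd, CK96h against CK72h -0.0583 for imd, and T96h against T72h 0.0781 for spz and 0.115 for Dredd. With upper-quartile factors Tl at 72 h was -0.0471, imd 0.0869 (difference) and -0.0363 (controls), and Dredd 0.0229 (T96h against T72h). With DESeq2 and with its size factors in edgeR, T96h against T72h was -0.0207 and -0.0206 for Rel, -0.0597 and -0.0595 for imd, and -0.0112 and -0.0111 for key. Leaving out each library in turn moved that comparison between -0.0197 and 0.0751 for Rel, -0.0209 and 0.0512 for imd, and -0.0968 and 0.0358 for Dredd. Library totals also gave 1 of the 10 genes lower at 72 h, and 3 higher and 2 lower from T72h to T96h, where upper-quartile factors gave 2 higher. Of all genes, library totals called 2986 higher at 72 h (342 past the fold threshold), 3635 with a lower effect at 96 h and 1848 lower from T72h to T96h. Leaving out each library gave 1 to 2 of the 10 genes past the fold threshold at 72 h and 512 to 813 of all genes higher past it at 96 h, the highest of both without T72h replicate 3. The cause was not tested.

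Replicate numbers did not pair the samples (r of -0.043 to 0.076 over 18 same-numbered pairs), and a replicate block left Rel at 1.43 and pirk at 2.52 at 72 h and changed no call of the 10 genes. Depth limits pirk in CK72h most, at 66 to 94 counts a library.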
